A study of Mus musculus with 7 samples.

Results

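The immunoglobulin kappa light chain locus (Igk) of the mouse was described here through its peaks of open chromatin. Members were all peaks of 7 ATAC-seq libraries on chromosome 6 that overlapped chr6:67555497-70770000 of the GRCm38 assembly (mm10). This interval runs from Igkv2-137, the V segment farthest from the J segments, to a point past the enhancers downstream of the constant exon Igkc. The rule found 1202 of the 647973 peaks of the 7 lists. Overlapping peaks merged into 310 of the 145247 union regions of the genome.

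In ATAC-seq, accessible DNA is cut out and sequenced, and fragments that stack up above a library's background are called as a peak. The study followed B-cell development in bone marrow with and without the transcription factor Erg, and each of its 7 groups here was 1 library. WT pre-proB, proB and preB cells carried Ergfl/fl, floxed alleles without a Cre transgene. Erg KO pre-proB cells carried Rag1CreT/+;Ergdelta/delta, in which the Rag1Cre allele deletes Erg in lymphoid cells. Rescue pre-proB, proB and preB cells carried Rag1CreT/+;Ergdelta/delta;IgHVH10tar, the same deletion with a heavy chain allele that is already rearranged and functional. Erg KO was therefore sampled at pre-proB alone. Every proB or preB library without Erg also held the IgHVH10tar allele, so these factors cannot be told apart after pre-proB. Every library without Erg carried Rag1CreT/+ and no WT library did, so Erg loss and this allele cannot be told apart at any stage. Stages were sorted with antibodies against B220, CD43, CD24, IgM and other surface proteins. Mice of the study were 6 to 18 weeks old, and the number behind each library was not stated. In such bulk samples, fewer cells with an open site and less opening per cell cannot be told apart.

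Titles and source names disagreed on the stage of all 3 Rescue libraries, and stages were taken from the titles. The lists held 76465 to 105649 peaks and a background pileup of 3.49 to 4.60 fragments. Of 10 B-lineage genes, 8 to 10 had a promoter peak in each library. Of 10 T-lineage genes, promoters were open for 6 in WT pre-proB, 9 in both Erg KO and Rescue pre-proB and 5 to 7 later, and Cd3e had none in any library. Promoter peaks covered 4 or 5 of 10 myeloid genes, 8 to 10 of 10 plasmacytoid dendritic genes and 5 or 6 of 10 erythroid genes. The part of other cell types in the results was not tested.

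Igk is assembled in developing B cells by joining a V segment to a J segment with the RAG recombinase, usually after the heavy chain has been made. RAG cuts at a recombination signal, a heptamer and a nonamer separated by a spacer, which lies directly behind each V exon. Each V segment has its own promoter with an octamer motif bound by Oct proteins. An intronic enhancer between J and C and 2 enhancers downstream of Igkc act on the locus, through factors such as NF-kB, E2A, PU.1 and Irf4.

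Sequences of 3 strong peaks behind the J segments are shown because the heights below turn on them. They were read from the GRCm38 genome as the 300 bases around the summit, and capitals mark matches to GGGACTTTC (kappaB), GAANNGAAA (composite PU.1-IRF) and CAGGTG (E-box) on either strand. The first lay in the intron between Igkj5 (chr6:70723886-70723927) and Igkc (chr6:70726435-70726966), 1.13 kb before the end of Igkc. The others lay 8.76 and 17.1 kb past that end. These are the places where the intronic and the 2 downstream enhancers are known to lie, and the files name no enhancer.
J-C intron peak, chr6:70725687-70725986, plus strand: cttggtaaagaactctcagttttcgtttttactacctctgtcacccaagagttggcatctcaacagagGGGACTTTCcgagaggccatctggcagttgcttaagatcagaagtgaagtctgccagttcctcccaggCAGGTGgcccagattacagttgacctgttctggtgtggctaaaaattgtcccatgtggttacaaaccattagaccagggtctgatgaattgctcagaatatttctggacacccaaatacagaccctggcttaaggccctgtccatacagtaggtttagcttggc
8.76-kb downstream peak, chr6:70735578-70735877, plus strand: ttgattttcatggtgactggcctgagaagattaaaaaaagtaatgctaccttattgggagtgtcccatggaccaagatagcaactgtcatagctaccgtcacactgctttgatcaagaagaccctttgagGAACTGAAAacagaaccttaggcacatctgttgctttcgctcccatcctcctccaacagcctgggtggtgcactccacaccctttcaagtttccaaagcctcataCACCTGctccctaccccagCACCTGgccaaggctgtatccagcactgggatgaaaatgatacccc
17.1-kb downstream peak, chr6:70743943-70744242, plus strand: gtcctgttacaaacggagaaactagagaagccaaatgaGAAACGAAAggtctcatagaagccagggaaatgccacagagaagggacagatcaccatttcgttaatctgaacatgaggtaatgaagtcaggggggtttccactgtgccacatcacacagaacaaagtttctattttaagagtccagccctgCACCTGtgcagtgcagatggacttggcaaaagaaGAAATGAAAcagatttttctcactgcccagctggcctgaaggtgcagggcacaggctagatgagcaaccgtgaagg

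The J-C intron peak held the kappaB letters and an E-box. It was the only region of 310 in the interval with the kappaB letters (0.323%), which 0.458% of all union regions held. The 8.76-kb peak held 1 PU.1-IRF match and 2 E-boxes, and the 17.1-kb peak held 2 and 1. Of all union regions, 14.2% held a PU.1-IRF match and 26.1% an E-box, so these matches were common in the genome.

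Recombination signals of V segments follow, with the heptamer and nonamer in capitals, because summits of pre-proB peaks lay beside them. Igkv19-93 had no mismatch to CACAGTG and ACAAAAACC, and the others had 1 or 2.
Igkv19-93 recombination signal, chr6:68736269-68736296, minus strand: CACAGTGatacaaatcataACAAAAACC
Igkv10-96 recombination signal, chr6:68631935-68631962, minus strand: CACAATGatataagtcataACATAAACC
Igkv10-95 recombination signal, chr6:68680849-68680876, plus strand: CACAATGatataagtcataACATAAACC
Igkv8-21 recombination signal, chr6:70314867-70314894, minus strand: CACAGTGcttcagtctcctACACAAACC
Igkv6-32 recombination signal, chr6:70073996-70074023, minus strand: CACAGTGcttcagcctcctACACAAACC

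Promoter stretches of V segments that were high at the later stages follow, with the octamer in capitals. In the direction of transcription it read ATTTGCAT, the reverse complement of ATGCAAAT.
Igkv15-103 promoter stretch, chr6:68437358-68437387, plus strand: ttcccctgctgATTTGCATgttaccagagc
Igkv9-129 promoter stretch, chr6:67839691-67839720, plus strand: gcttcttaatgATTTGCATatcctcactac
Igkv1-135 promoter stretch, chr6:67609628-67609657, plus strand: cagaccagaacATTTGCATattgttccctg
Igkv9-123 promoter stretch, chr6:67954763-67954792, minus strand: gcttcttaatgATTTGCATaccctcactgc

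Far more of Igk was open at the later stages. From pre-proB to preB in WT there were 73, 224 and 236 peaks in the interval. There were 80 in Erg KO. Rescue had 87 peaks at pre-proB, 237 at proB and 265 at preB by title, so by source name the library with 87 would be proB and that with 265 pre-proB. The 3 pre-proB libraries were therefore within 73 to 87 peaks, and the 4 later libraries within 224 to 265. As a share of all peaks called, these were 0.0763% in WT pre-proB and 0.309% in WT preB. They covered 41.4, 117 and 132 kb in WT from pre-proB to preB, 46.0 kb in Erg KO, and 51.6, 134 and 159 kb in Rescue.

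The annotation held 176 Igk V segments, 102 annotated as genes and 74 as pseudogenes, and a V window was the segment with 500 bp on either side. In WT, 29 windows held a peak at pre-proB (16.5%, Wilson 95% interval 11.7 to 22.7), 89 at proB (50.6%, 43.2 to 57.9) and 110 at preB (62.5%, 55.2 to 69.3). In Erg KO 25 did (14.2%, 9.81 to 20.1). Rescue had 28 at pre-proB, 89 at proB and 104 at preB (15.9%, 50.6% and 59.1%). Intervals take windows as independent draws, cover counting error only and do not measure the spread between mice. From pre-proB to preB in WT, peaks were found at 23, 73 and 89 of the 102 V genes and at 6, 16 and 21 of the 74 pseudogenes. The heavy chain V windows (183) took another course, with 65, 96 and 39 from pre-proB to preB in WT and 79 in Rescue preB.

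**Figure D1:**
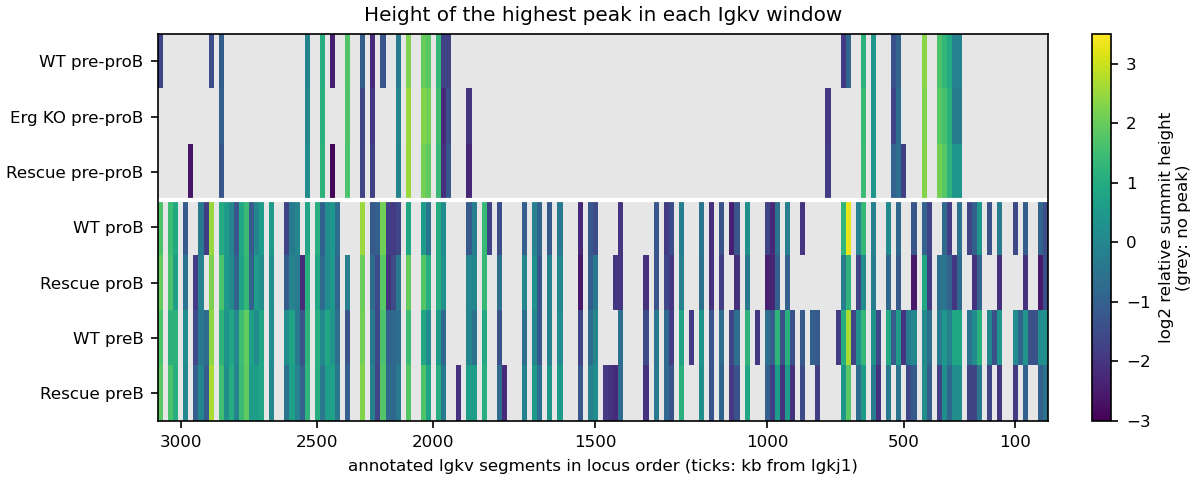
Each column is 1 of the 176 Igkv windows in locus order and each row 1 library; colour is the log2 relative summit height of its highest peak and grey means no peak. The 3 pre-proB rows hold peaks in 25 to 29 windows and the 4 later rows in 89 to 110.

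Between WT pre-proB and proB, 148 of the 220 regions with a peak in either were in proB only (67.3%), against 23.5% of regions genome-wide. Only 15 (6.82%) were in pre-proB only, against 26.3% genome-wide. From WT proB to preB, 42 of 247 regions (17.0%) were in preB only, against 8.01% genome-wide, and 26 (10.5%) in proB only, against 24.4%. Over all libraries, 107 of the 310 regions (34.5%) had a peak in all 4 later libraries and no pre-proB library, a pattern of 5.19% of regions genome-wide. Regions with a peak in all 7 libraries numbered 43 (13.9%, against 32%).

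V segments divided by stage in the same way. Of the 176 windows, 57 had a peak in all 4 later libraries only, 29 in some of them only, 18 in all 7 libraries, 57 in none, and 12 in other mixtures of stages. Just 3 windows had peaks at pre-proB alone, namely Gm42925, Gm43284 and Igkv12-38. From WT pre-proB to proB, 65 windows had a peak in proB only and 5 in pre-proB only (Igkv11-106, Gm42925, Igkv8-26, Igkv8-18 and Gm42667).

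Families differed, in counts too small to rank closely. Igkv4, the family with the most windows (33), had a peak in 1 window in each pre-proB library, in 21 at WT proB and in 24 at WT preB. Igkv1 (13 windows) had 1, 10 and 12 in WT, and none in Erg KO or Rescue pre-proB. Igkv6 had peaks in 4 of 9 windows in all 3 pre-proB libraries and in all 9 at WT preB. Igkv8 had 5 of 12 at WT pre-proB, 4 at proB and 8 at preB. Igkv3 had none of 13 at pre-proB, 6 at WT proB and 10 at WT preB. Igkv12 had 1, 6 and 7 of 12 in WT and 3 of 12 in Erg KO, and Igkv14 had 1, 7 and 7 of 8. Igkv13, with 2 genes among its 18 windows, had no peak except for Igkv13-85 in Rescue preB.

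**Figure D2:**
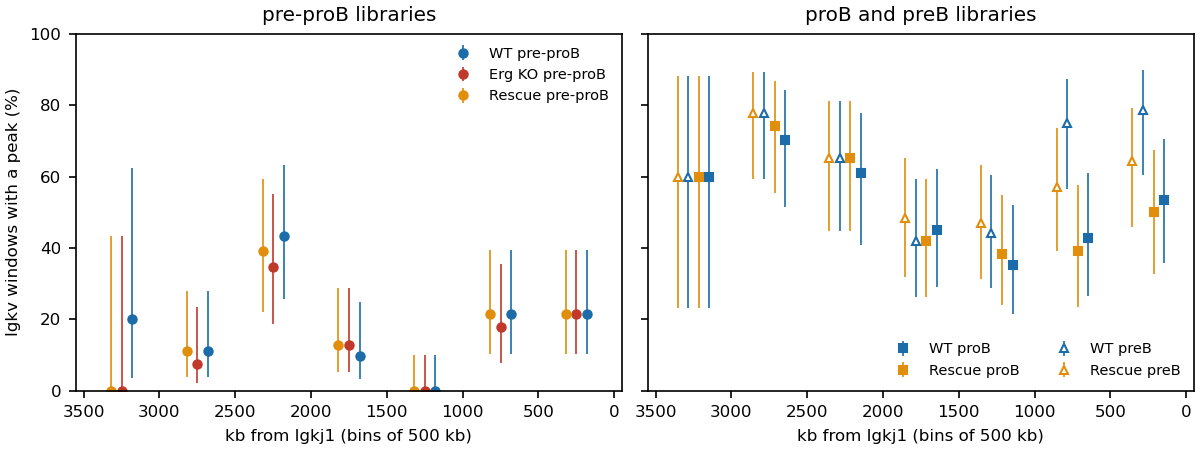
Share of Igkv windows with a peak (%) in bins of 500 kb from Igkj1, with Wilson 95% intervals, for the pre-proB libraries (left) and the later libraries (right). Between 1000 and 1500 kb no pre-proB library had a peak in any of 34 windows, while the later libraries had 12 to 16.

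Counts differed along the locus. In the bin from 1000 to 1500 kb upstream of Igkj1, none of 34 windows had a peak in any pre-proB library. These were all annotated windows of the bin, and the Wilson interval, which takes windows as independent draws, ran up to 10.2%. WT proB had 12 there and WT preB 15. Pre-proB peaks were most frequent from 2000 to 2500 kb, with 10 of 23 windows in WT, 8 in Erg KO and 9 in Rescue. In the 28 windows within 500 kb of Igkj1, WT had 6, 15 and 22 from pre-proB to preB. V genes in the orientation of the J segments had peaks in 13 of 38 at WT pre-proB and those in the other orientation in 10 of 64. The contrast was smaller in Erg KO (10 of 38 and 11 of 64) and Rescue pre-proB (11 of 38 and 12 of 64). At WT preB these numbers were 35 of 38 and 54 of 64.

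Heights were compared as relative heights, the summit pileup divided by the median pileup of the 46442 regions with a peak in all 7 libraries. For a V window this was the summit of its highest peak, which could lie at another site of the window in another library. Among the 18 segments open throughout, Igkv10-96 had summit pileups of 386 fragments in WT pre-proB, 520 in Erg KO and 564 in Rescue pre-proB. The later libraries had 145 in WT proB, 182 in WT preB, 275 in Rescue proB and 277 in Rescue preB. In relative height these were 4.71, 5.78 and 5.70 at pre-proB and 1.79, 2.80, 3.93 and 3.46 later, so all 3 pre-proB libraries stood above all 4 later ones. Igkv8-21 was at 5.10, 4.80 and 4.87 at pre-proB (WT, Erg KO, Rescue) and at 0.519, 1.06, 1.81 and 1.15 later (WT proB, WT preB, Rescue proB, Rescue preB). Igkv10-95, Igkv10-94, Igkv14-111 and Igkv6-17 had the same order of stages, with pre-proB at 2.12 to 4.81 and later libraries at 0.506 to 3.39.

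Other segments of this group were low at pre-proB and high later. Igkv15-103 was at 0.476 in WT pre-proB, 0.322 in Erg KO and 0.313 in Rescue, then at 5.74 in WT proB and 4.34 in WT preB. Rescue had 4.07 at proB and 4.81 at preB. Igkv17-127 stood at 0.414 to 0.5 in the pre-proB libraries and at 1.99 to 3.16 later. Igkv11-114, a pseudogene, stood at 0.951 to 1.12 and then at 1.73 to 2.42. Igkv19-93 stood at 2.51 to 2.87 at pre-proB and at 1.45 to 2.16 later, and in Igkv8-30 and Igkv12-98 the pre-proB libraries were also all above the later ones, by less. In Igkv6-32, Igkv6-15 and Igkv6-25 the ranges of the stages overlapped.

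Of the 8 highest V windows of WT preB, Igkv10-96 was also high at pre-proB. The others, and the highest of WT proB, had no pre-proB peak or one of at most 45 fragments. Gm43586, a pseudogene 682 kb upstream of Igkj1, had 45, 782 and 407 fragments from pre-proB to preB in WT. It had no peak in Erg KO or Rescue pre-proB, and 163 and 284 fragments in Rescue proB and preB. Igkv9-129 had 30, 454 and 344 fragments in WT, none called in the other pre-proB libraries, and 327 and 510 in Rescue proB and preB. Igkv15-101 and Igkv2-137 had relative heights of 3.08 to 4.32 in all 4 later libraries. Igkv1-135, Igkv9-123, Igkv9-124 and Gm42543 had no pre-proB peak and stood at 1.69 to 3.86 later.

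Summits lay at different ends of the V segment by stage. Of the 23 V genes open in WT pre-proB, the summit lay behind the segment in 16 and within 300 bp upstream of it in 5. In Erg KO these counts were 19 and 2 of 21, and in Rescue pre-proB 19 and 2 of 23. The median pre-proB summit lay 55 bp past the end of the segment in WT, 59 bp in Erg KO and 56 bp in Rescue, beside the 28-bp recombination signals printed above. In WT proB 40 of 73 summits lay within 300 bp upstream and 26 behind the segment, and in WT preB 47 and 36 of 89. Rescue had 34 and 28 of 71 at proB and 40 and 38 of 86 at preB. The later summits thus fell into an upstream and a downstream group.

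**Figure D3:**
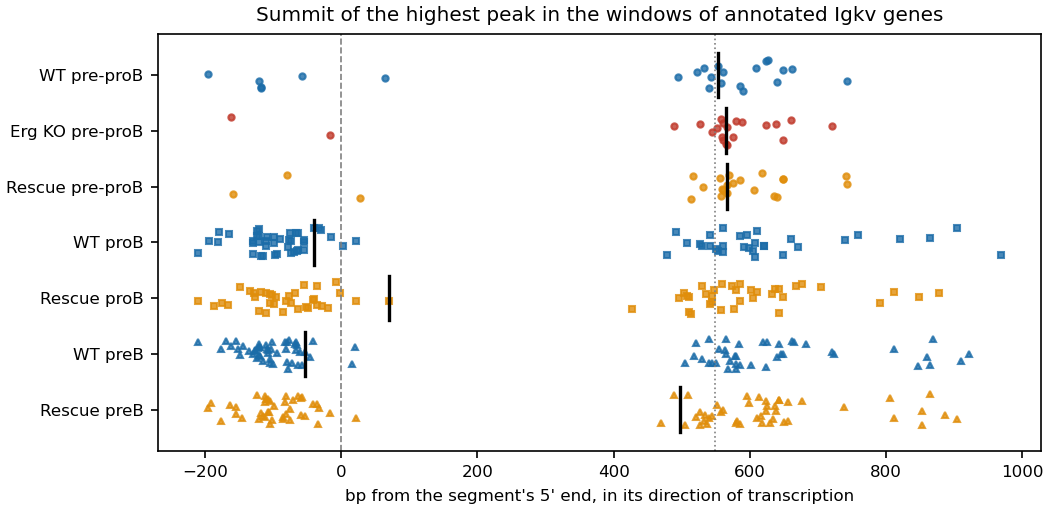
Position of the summit of the highest peak in the window of each annotated Igkv gene, in bp from its 5′ end; points are genes, black bars medians, the dashed line the 5′ end and the dotted line the median segment length. Pre-proB summits cluster behind the segment (16 of 23 in WT), and later summits lie on both sides of it.

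The shift was also present within single segments. Among the 18 segments open in all libraries, summits lay behind the segment in 15, 16 and 14 in WT, Erg KO and Rescue pre-proB, in 10 and 8 in WT proB and preB, and in 11 and 10 in Rescue proB and preB. For Igkv19-93 the WT summit lay 50 bp past the segment at pre-proB, and at both later stages it lay at its promoter side. For Igkv10-94 it lay 84 to 91 bp past the segment in all 7 libraries. Only 1 summit, that of the highest peak, was read per window and library.

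Recombination signals with up to 4 mismatches lay behind 98 of the 102 V genes (96.1%) and 38 of the 74 pseudogenes (51.4%). All 18 segments open in all libraries had one, and so did 29 of the 57 with no peak. Among pseudogenes, WT preB had a peak in 16 of 38 with a signal and in 5 of 36 without. An octamer with exactly the letters ATGCAAAT, on either strand, was sought within 250 bp upstream. It was found for 73 of the 102 V genes (71.6%) and 23 of the pseudogenes (31.1%). Of 27025 RefSeq promoter sequences (GRCm38), 1.61% held it in their first 250 bases. The median octamer of V genes lay 92 bases before the segment. No window of Igkv6 or Igkv8 had these exact letters. At WT pre-proB these families had peaks in 4 of 9 and 5 of 12 windows, against 29 of all 176. Among V genes at WT pre-proB, peaks were present in 13 of 73 with an octamer and in 10 of 29 without. At WT preB these were 62 of 73 and 27 of 29.

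Motif shares in the 300 bases around summits differed by stage, and so did the place of the summits. These shares therefore do not tell whether a segment had an octamer upstream. Upstream octamers were found for 10 of the 18 segments open in all libraries (55.6%) and for 96 of all 176 segments (54.5%). Regions of V windows with a peak in later libraries only held the octamer in 57 of 106 (53.8%, 44.3 to 63.0), and those with a peak in all 3 pre-proB libraries in 2 of 22 (9.09%, 2.53 to 27.8). Genome-wide these shares were 5.56% and 1.77%. The CTCF letters AGGNGGCNG were in 5 of 22 regions with a peak in all 3 pre-proB libraries and in 5 of 106 of the later-only regions, against 12.6% and 7.99% genome-wide. Their reversed form GNCGGNGGA, of the same base content, was in none of the 310 and in 2.48% of all union regions. It has CG as fixed letters, which AGGNGGCNG does not, so it is not a matched control. GAGGAAGT (PU.1) was in 19.4% of V window regions and 8.53% of all regions. CCCNNGGGA (EBF1) was in none of the 61 regions of the interval with a peak in all 3 pre-proB libraries and in 23 of 217 later-only regions (10.6%), against 5.36% and 14.5% genome-wide. Median GC content was 42.0% in the interval and 48.3% genome-wide, and a match is not a bound site.

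Between the WT and Erg KO pre-proB libraries, 6 V windows had a peak in WT only, 2 in Erg KO only and 23 in both. Of 86 regions with a peak in either, 10 (11.6%) were in WT only and 14 (16.3%) in Erg KO only, against 5.58% and 12.5% genome-wide. The order of these shares depended on list length: with equal lists 18% were in WT only and 3.28% in Erg KO only, and at a −log10 q of 10 or more 12.3% and 5.26%. Of the 62 regions in both, none differed 2-fold or more in relative height, and genome-wide 0.375% were 2-fold or more lower and 0.243% higher in Erg KO. In the 23 V windows with a peak in both, the median log2 ratio of Erg KO to WT was 0.15 (quartiles -0.05 and 0.23). With 1 library each, the spread between mice is unknown.

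Windows with a WT peak and no Erg KO peak were Gm43586, Igkv15-101, Igkv9-129, Igkv2-137, Igkv1-35 and Igkv2-109. Their WT pre-proB pileups were 45, 34, 30, 26, 22 and 15 fragments, where the lowest called pileup of a library was 12. All but Igkv2-109 were also without a peak in Rescue pre-proB, where Igkv2-109 had 13. In WT proB these 6 windows stood at 111 to 782 fragments, and 4 of them were among the 8 highest V windows. Pou2af1, which encodes a coactivator of Oct proteins, lacked a promoter peak in Erg KO and Rescue pre-proB and had one in WT. The other 17 of 18 factors of the kappa pathway, among them Irf4, Spi1, Tcf3, Pax5, Ebf1, Rag1 and Rag2, had a promoter peak in all 7 libraries. Cd79a, a component of the B-cell receptor, lacked one in Erg KO only.

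Windows with an Erg KO peak and no WT peak were Igkv12-38 and Igkv12-89, with 24 and 22 fragments. Both also had a peak in Rescue pre-proB, with 28 and 20. In front of the J segments, 4 regions had this pattern too. They lay 5.27, 3.64, 1.97 and 0.062 kb upstream of Igkj1. WT pre-proB had no peak in any of them, Erg KO had 20, 36, 25 and 19 fragments and Rescue pre-proB 25, 35, 36 and 31. All 4 had a peak in every later library, with 19 to 57 fragments in WT proB and 48 to 93 in Rescue proB.

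The 3′ side of the locus was open in all 7 libraries. Here 9 regions between Igkv3-1, the V segment nearest to J, and the end of the interval had a peak in every library. The J-C intron peak had 213, 288 and 250 fragments from pre-proB to preB in WT, 313 in Erg KO, and 324, 304 and 321 in Rescue. Relative heights were 2.60 in WT pre-proB (Poisson 95% interval 2.26 to 2.97), 3.48 in Erg KO (3.10 to 3.89) and 3.27 in Rescue pre-proB (2.93 to 3.65), then 3.56 and 3.85 in WT proB and preB. WT pre-proB was thus the lowest library at this peak, with a log2 ratio of Erg KO to WT of 0.42 (SE 0.13, counting error only).

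The 2 downstream peaks had different courses. At 8.76 kb past Igkc, where the 3′ kappa enhancer is known to lie, relative heights were 7.91, 8.30 and 8.47 in WT, Erg KO and Rescue pre-proB. They were 7.25 and 7.39 in WT and Rescue proB and 4.85 and 5.25 in WT and Rescue preB. Both genotypes were thus lowest at preB, with a log2 ratio of WT preB to proB of -0.58 (SE 0.10). At 17.1 kb the heights were 4.11, 4.14 and 4.40 at pre-proB, 6.51 and 8.66 at proB and 7.22 and 8.01 at preB, so every later library stood above every pre-proB library.

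**Figure D4:**
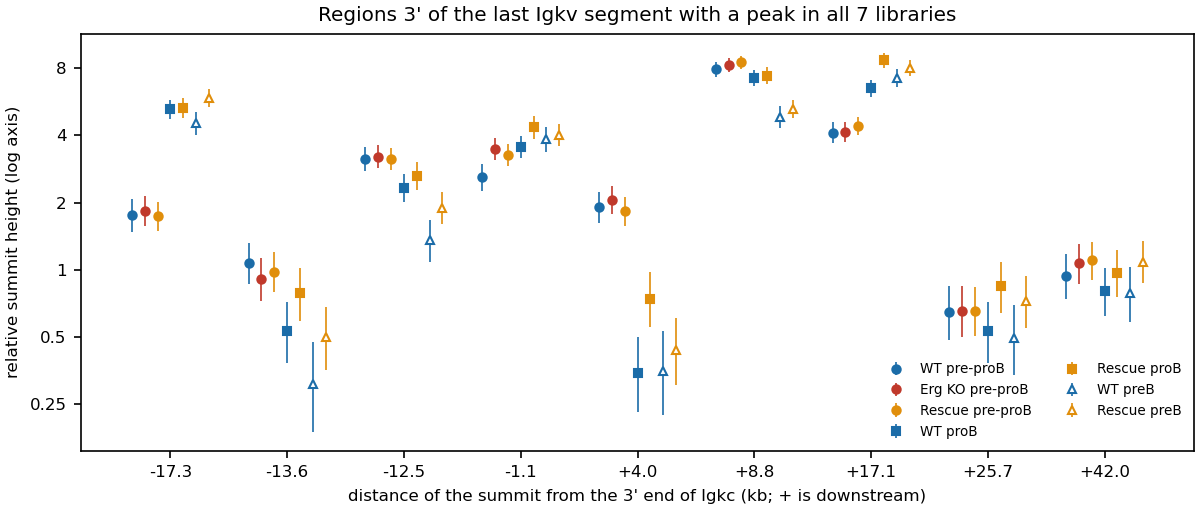
Relative summit height (log axis) of the 9 regions 3′ of the last Igkv segment with a peak in all 7 libraries, by distance from the 3′ end of Igkc in kb; bars are Poisson 95% intervals. The region at +17.1 kb is higher in the later libraries, and that at +4.0 kb higher at pre-proB (1.83 to 2.06 against 0.346 to 0.743).

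Between V and J, the region 12.9 kb upstream of Igkj1 was at 1.74 to 1.83 in the 3 pre-proB libraries and at 4.52 to 5.88 in the 4 later ones. The regions 9.21 and 8.10 kb upstream had the other order. The latter was at 3.13 to 3.21 at pre-proB, at 2.33 and 2.64 in WT and Rescue proB, and at 1.35 and 1.90 at preB. A region 4.01 kb past Igkc was at 1.90, 2.06 and 1.83 at pre-proB and at 0.346 to 0.743 later. A region 20.9 kb past Igkc had 121 to 152 fragments at pre-proB, 51 in Rescue proB and no peak in the 3 other later libraries. The regions at 25.7 and 42.0 kb differed less, with relative heights of 0.492 to 0.843 and 0.785 to 1.10. That at 42.0 kb lay within another annotated gene, Rpia.

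Further regions of the 3′ side were found in part of the libraries. A region 35.8 kb past Igkc had 15 to 46 fragments in the 4 later libraries only. Regions at 28 and 27.1 kb had peaks in WT proB only, with 75 and 30 fragments, and that at 38.4 kb had 26 there. In the 5 others of the 15 downstream regions, at 2.45, 2.86, 23.0, 24.7 and 37.9 kb, peaks were found in 1 to 3 later libraries with 13 to 24 fragments. The region 0.931 kb upstream of Igkj1 had a peak in Rescue preB only, with 16.

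Between V segments, 147 regions lay outside the V windows. Those with a peak in all 3 pre-proB libraries and no later one numbered 6, with 17 to 40 fragments. The strongest, chosen after their values were seen, were high at proB. A region at chr6:68883356-68884965, 3675 bp from Gm42543, had 50, 571 and 148 fragments from pre-proB to preB in WT, no peak in Erg KO or Rescue pre-proB, and 317 and 268 in Rescue proB and preB. A region at chr6:68749719-68751176 was at 0.793, 0.756 and 0.899 in WT, Erg KO and Rescue pre-proB, at 5.43 and 3.80 in WT and Rescue proB, and at 2.02 and 2.21 at preB. Both were thus higher at proB than at preB in both genotypes. A region at chr6:68977646-68978687 was at 0.232 to 0.293 in the pre-proB libraries and at 1.84 to 3.49 later.

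V windows already open in WT proB were mostly higher in WT preB. In the 88 windows with a peak in both, the median log2 ratio of preB to proB was 0.72 and 68 were higher, where the median of 64233 regions genome-wide was 0.12 and 58.5% were higher. Heights 2-fold or more higher in preB were found in 32 (36.4%), against 6.38% of regions genome-wide, and 2-fold or more lower in none, against 8.07%. Another 22 windows had a peak in preB only and 1 in proB only. Within 500 kb of Igkj1, 15 of 15 windows were higher in WT preB, with a median of 1.17, and from 1500 to 2000 kb 8 of 13, with a median of 0.15.

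WT and Rescue were compared at matched stages, with the WT pre-proB library shared with the Erg KO comparison. At pre-proB, 7 of 90 regions (7.78%) were in WT only and 18 (20%) in Rescue only, against 4.6% and 14.7% genome-wide, and none of the 65 in both differed 2-fold, against 0.513% lower and 0.275% higher in Rescue genome-wide. At proB, 24 of 240 (10%) were in WT only and 35 (14.6%) in Rescue only, against 17.5% and 16% genome-wide. At preB these were 19 (6.96%) and 52 (19%) of 273, against 6.6% and 16.2%. With equal lists the order turned at pre-proB (18.5% in WT only, 9.23% in Rescue only) and at proB (12.7% and 10.8%), and it did not turn at preB (9.38% and 13.7%). At a −log10 q of 10 or more it turned at proB (15.3% and 14.7%).

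The difference between WT and Rescue ran along the locus. Over all V windows with a peak in both, the median log2 ratio of Rescue to WT was -0.04 at proB (82 windows) and -0.10 at preB (99 windows). Within 1000 kb of Igkj1, 19 of 23 windows were lower in Rescue proB, with a median of -0.79 (quartiles -1.32 and -0.15). In preB 33 of 34 were lower, with a median of -0.78 (quartiles -1.28 and -0.58). From 1500 to 2500 kb, 18 of 27 were higher in Rescue proB and 24 of 28 higher in Rescue preB, with medians of 0.19 and 0.37. Genome-wide medians were -0.05 and -0.11, and 45.4% of regions at proB and 36.8% at preB were higher in Rescue. The study reported kappa light chain recombination in Rescue splenic B cells. The part of V-J joining in these heights was not tested.

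**Figure D5:**
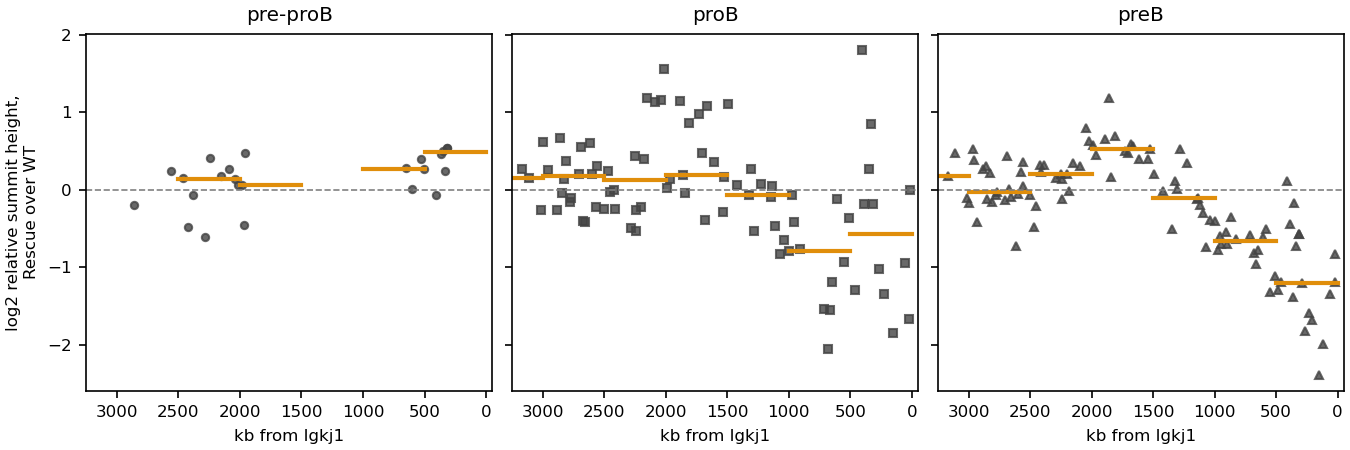
Log2 ratio of relative summit height, Rescue over WT, for each Igkv window with a peak in both libraries against its distance from Igkj1, at 3 stages; orange lines are medians of 500-kb bins with 3 or more windows. Within 1000 kb of Igkj1, 33 of 34 windows lie below 0 at preB and 19 of 23 at proB, against 1 of 10 at pre-proB.

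At pre-proB the windows near J did not have this order. Within 1000 kb, 9 of 10 were higher in Rescue pre-proB, with a median of 0.34, and in Erg KO 6 of 10 were higher than in WT, with a median of 0.08. Windows with a preB peak in WT only numbered 11, of which 9 lay within 1000 kb, among them Igkv3-3, Igkv3-4, Igkv3-6 and Igkv3-11 with 25 to 35 fragments. Igkv3-6 and Igkv3-11 are among the least unique windows of the locus. None of the 5 windows with a peak in Rescue preB only lay within 1000 kb. Regions outside the V windows within 1000 kb were lower in Rescue preB in 12 of 13, with a median of -0.67, and at proB in 6 of 10. By contrast, the 9 regions 3′ of the last V segment with a peak in all libraries had a positive log2 ratio of Rescue to WT at both proB and preB. Medians were 0.29 and 0.38. Some ratios were beyond counting error, such as 0.41 (SE 0.09) at 17.1 kb in proB. Others were within it, such as 0.03 (SE 0.09) in proB and 0.12 (SE 0.11) in preB at 8.76 kb.

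Single segments differed in the counting error of their ratio, which does not measure the spread between mice. Gm43586 had relative heights of 9.65 in WT proB and 2.33 in Rescue proB, a log2 ratio of -2.05 (SE 0.12), and 6.26 and 3.55 at preB (-0.82, SE 0.11). Igkv1-35 was at 2.44 and 0.843 at proB (-1.54, SE 0.21) and at 2.03 and 1.35 at preB (-0.59, SE 0.19). Igkv3-10 was at 0.827 and 0.229 at proB and at 1.31 and 0.25 at preB, with 67, 16, 85 and 20 fragments, and its counting error was wider (SE 0.40 at proB and 0.36 at preB). Igkv10-96 and Igkv10-95, 2090 and 2042 kb from Igkj1, were higher in Rescue proB, with log2 ratios of 1.13 (SE 0.15) and 1.16 (SE 0.16). Igkv8-21, 407 kb from Igkj1, was an exception with 1.81 at proB (SE 0.26) and 0.12 at preB (SE 0.23). Igkv3-10 and the 1000-kb limit were chosen after the values were seen.

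Beyond 2-fold, 9 of the 82 V windows (11%) were lower and 8 (9.76%) higher in Rescue proB, against 7.77% and 4.88% of regions genome-wide. At preB 13 of 99 (13.1%) were lower and 1 (1.01%) higher, against 1.99% and 1.76%. Windows 2-fold or more lower in Rescue at both stages numbered 5 of 82 (6.10%), where the share genome-wide was 1.05%, and none was higher at both, against 0.724%. The only window with peaks in Rescue proB and preB and in neither WT library was Igkv4-69, with 18 and 17 fragments, and no window had the reverse.

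V segments resemble each other, which limits how reads can be placed. The median share of 75-base words of a V window that occurred once in the GRCm38 chromosomes was 94.6%, with a minimum of 49.9%. It was 90% or more in 121 of 176 windows. At WT preB, 68 of these 121 windows had a peak, and 42 of the 55 less unique ones. Igkv3-11 (49.9%), Igkv3-6 (51.5%) and Igkv4-69 (58.7%) were the least unique named here, and Gm43586, Igkv6-32, Igkv19-93 and Igkv15-103 were at 100%. The treatment of reads with several placements was not stated.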

How the data were processed

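ATAC-seq peak lists of 7 sorted B-cell libraries were used, 1 per group. Per the labels, nuclei were tagmented with Tn5 (the methods name sonication instead), and the submitters' processing notes name CASAVA 1.8.2, Bowtie2, Picard, MACS2 and mm10, without settings (the methods state alignment with Bowtie2 and peak calling with MACS2). One peak list was deposited per library. The score deposited by the authors was 10 times the −log10 q. The fold deposited by the authors is a ratio of summit pileup to background pileup, each with 1 added. The −log10 p-value and −log10 q-value columns were deposited by the authors for each summit, and the summit offset was deposited in bp from the peak start.

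In each library every fold was a whole multiple of a common step, to within 0.02 steps, and background and summit pileups followed from that step. Read totals are unknown, so precision rests on pileups, with exact Poisson intervals, and on Wilson intervals of shares, both at 95% and for counting error only. The lowest called pileup was 10 to 12 fragments, and a region without a peak may still have held fragments.

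Peaks overlapping by 1 bp or more were merged into union regions. V segments came from GENCODE M21 on GRCm38, and windows added 500 bp. Sequences were read from the GRCm38 genome, and promoters of other genes from RefSeq. Scripts (Python 3.11.15) were tested on simulated data. With 1 library per group no test was run and no p-value is given. Shares of regions in only 1 library or differing 2-fold are given beside the genome-wide share of the same call. The members, lists and comparisons were chosen with earlier results of these data known. Named segments were those with a peak in all 7 libraries (up to 15), the 8 highest in WT proB and in WT preB, those that differed in presence between Erg KO and WT pre-proB or between WT and Rescue at both later stages, all regions 3′ of Igkv3-1, and up to 6 intergenic regions found at pre-proB only. Alternatives were equal list lengths, a −log10 q of 10 or more, windows of 200 or 1000 bp, summits inside windows, a reciprocal overlap of 50%, Rescue stages from the source names, and heights over the background pileup. One marker gene is not reported here.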

Additional observations from a re-analysis of the deposited data

Results flagged for a closer look

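For 7 quantities the step from 1 stage to the next ran in opposite directions in WT and Rescue. None of these differences was tested, since each step rests on 1 library per stage and genotype. Peaks between the last V segment and Igkj1 differed by 3 from pre-proB to proB in WT and by -1 in Rescue. In Rescue pre-proB, 2 of these peaks fell in 1 union region that was 1 peak at proB, and by regions Rescue had 6 at both stages. The other 6 were relative summit heights. From proB to preB, the region 12.9 kb upstream of Igkj1 differed by -0.711 in WT and 0.589 in Rescue. The J-C intron region differed by 0.291 in WT and -0.330 in Rescue, the region 4.01 kb past Igkc by 0.00817 and -0.305, the region at 17.1 kb by 0.709 and -0.645, and the region at 42.0 kb by -0.0179 and 0.116. From pre-proB to proB, the region at 25.7 kb differed by -0.115 in WT and 0.186 in Rescue. All 6 WT height steps were within counting error. The log2 ratio of preB to proB was -0.21 (SE 0.11, interval -0.43 to 0.0038) at 12.9 kb upstream of Igkj1. At 17.1 kb it was 0.15 (SE 0.09, interval -0.03 to 0.33). It was 0.03 (SE 0.41) at 4.01 kb, -0.03 (SE 0.27) at 42.0 kb and 0.11 (SE 0.12) in the J-C intron. The log2 ratio of proB to pre-proB at 25.7 kb was -0.28 (SE 0.30).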

How the results depend on the processing

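No paired analysis was possible because each group held 1 library and no result came from a test. Windows of 200 or 1000 bp and summits inside the window moved none of the 7 shares of V windows beyond its interval, and heights over the background pileup reversed none of the 6 medians over regions. On that scale, V windows within 1000 kb of Igkj1 kept medians of -0.66 (proB) and -0.59 (preB) for Rescue over WT. With lists of equal length, Erg KO pre-proB had 51 Igk peaks and Rescue pre-proB 53, and Rescue proB had peaks in 43.2% of V windows. Shares of regions in only 1 library were then 24.2% (WT preB, against proB), 18% and 3.28% (WT and Erg KO pre-proB), 18.5% and 9.23% (WT and Rescue pre-proB) and 13.7% (Rescue preB). At a −log10 q of 10 or more, Igk peaks were 51 in Erg KO, 56 in Rescue pre-proB and 156 in Rescue proB, and V windows with a peak were 42.6% for WT proB, 38.6% for Rescue proB and 51.1% for Rescue preB. Regions in only 1 library were 24.1% (WT preB, against proB), 5.26% (Erg KO), 12.9% (Rescue pre-proB), 15.3% (WT proB, against Rescue), 11.1% (WT preB, against Rescue) and 14.5% (Rescue preB). With a reciprocal overlap of 50% they were 13.2% (WT pre-proB, against proB), 21.3% and 25.3% (WT proB and preB), 19.9% and 24.3% (WT and Rescue proB) and 15.6% and 24.8% (WT and Rescue preB). With Rescue stages from the source names they were 73.0% (Rescue, at pre-proB), 63.8% and 10.5% (WT and Rescue, at proB) and 16.9% (WT, at preB). The cause of these moves was not tested. The lists hold no regions below the calling threshold, so differences below it were not measured.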
